A study of Saccharomyces cerevisiae with 100 samples.

Results

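The genes described here are the yeast loci that yield an RNA rather than a coding sequence and that carried a single-nucleotide variant (SNV) in 95 suppressor strains of *Saccharomyces cerevisiae*. They were taken from the table of the suppressors as every gene on a row whose effect is given as an exon without a coding change. This gave 83 genes with 98 distinct SNVs, out of 1632 genes with an SNV of any kind and 2904 SNVs in all. The suppressors were W303 derivatives, MATa sml1Δ::URA3 rad53Δ::LEU2, recovered on plates with methyl methanesulfonate (MMS, an alkylating agent), and grown in YPD at 30 °C for DNA. The control strain YJT75 has the same genotype, so that loss of the checkpoint kinase Rad53 and of the ribonucleotide reductase inhibitor Sml1 is common to all 96 libraries. Each strain was sequenced in 1 library without replicates, so that permutation p-values rest on the variation between strains. Fisher's exact test instead treats each SNV as independent. The measured value is the allele frequency, the fraction of a library's reads with the alternative base at a site, and an SNV was counted in a suppressor at 0.40 or more, the deposited minimum. The number of reads behind each value is unknown. Variants are written as the reference base, the position on the chromosome in sacCer2 and the alternative base.

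Transfer RNAs (tRNAs) carry amino acids to the ribosome and are transcribed by RNA polymerase III from short genes, most of which exist in several near-identical copies. Their names give the amino acid, the anticodon and the chromosome, so that tG(GCC)E is a glycine tRNA gene with anticodon GCC on chromosome V. Small nucleolar RNAs (snoRNAs) guide the chemical modification of ribosomal RNA or its cleavage from the precursor. SCR1 is the RNA of the signal recognition particle, which directs secretory proteins to the endoplasmic reticulum.

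Transfer RNA genes made up most of the set. They were 75 of the 83 genes and 89 of the 98 SNVs (90.8%), and 60 of the 95 suppressors carried at least 1 SNV in a tRNA gene. The other members were 4 snoRNA genes with 5 SNVs, SCR1 with 1 SNV, and 3 loci with systematic names and 1 SNV each. No ribosomal RNA gene and no spliceosomal snRNA gene was listed. The label of noncoding RNA did not hold for the loci with systematic names. In the R64 annotation YCL075W and YCL074W are pseudogenes, known as fragments of a Ty polymerase gene, and YNL054W-B is a protein-coding gene of a Ty retrotransposon.

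The share of tRNA genes hit was close to that of protein-coding genes. Of 275 nuclear tRNA genes in the R64 annotation, 75 carried an SNV (27.3%), beside 1485 of 6002 protein-coding genes with a coding SNV (24.7%). The number of SNVs per 100 annotated genes was 32.4 for tRNA genes, 32.7 for protein-coding genes and 6.58 for snoRNA genes, of which 4 of 76 were hit (5.26%). These values are per gene and not per base. In the 13 tRNA genes with more than 1 SNV, the outermost SNVs lay 2 to 69 bp apart (median 21 bp), whereas in 359 coding genes with more than 1 SNV the median distance was 669 bp. The lengths of the genes were not used here, and the share per base was not tested.

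The SNVs in tRNA genes were spread over 18 amino acids and 28 anticodons. These are raw counts, not set against the number of annotated genes for each amino acid or anticodon. Glycine tRNA genes carried the most, with 10 SNVs in 8 genes, and the anticodon GCC alone accounted for 8 SNVs in 6 genes. Valine tRNA genes followed with 8 SNVs in 7 genes. Alanine, glutamate, lysine, leucine and arginine tRNA genes carried 7 SNVs each, in 5 to 7 genes. Phenylalanine and proline tRNA genes had 6 SNVs each, and the tRNA genes for the other amino acids had 1 to 4. No exonic SNV lay in a methionine or tryptophan tRNA gene. Of the 6 tRNA genes that are the only ones with their anticodon (tR(CCG)L, tS(CGA)C, tT(CGU)K, tQ(CUG)M, tR(CCU)J and tL(GAG)G), 0 carried an SNV, which is too few genes to compare with 27.3%. The SNVs in cysteine (tC(GCA)P2, G775811C in SUP121) and serine tRNA genes (tS(GCU)O, G274699T in SUP53) were single ones, at allele frequencies of 1 and 0.995. Reads from near-identical tRNA copies can be placed on the wrong copy, and which copy carried an SNV is uncertain to that extent.

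**Figure D1:**
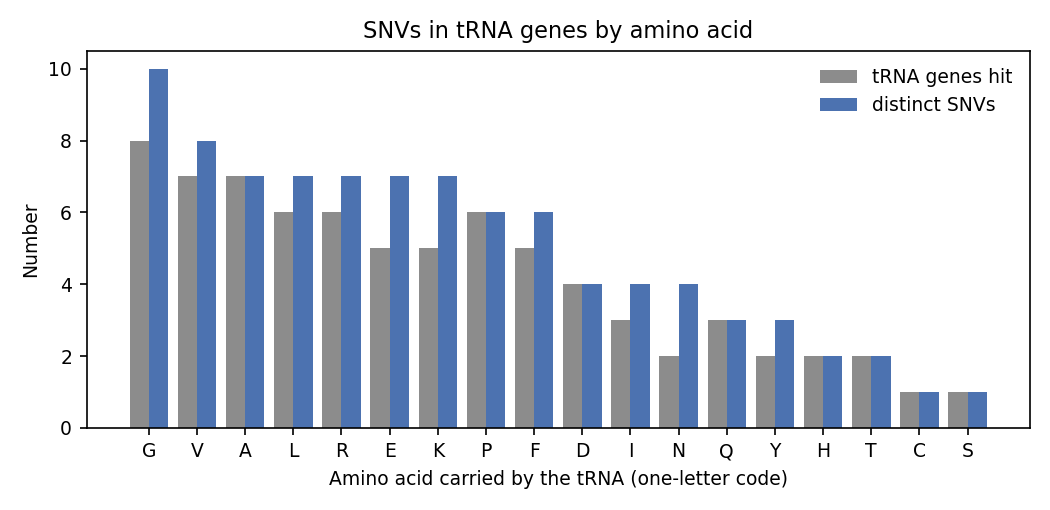
Number of tRNA genes hit (grey bars) and of distinct SNVs in them (blue bars) for each amino acid, in the 95 suppressors. Glycine has the largest raw counts, with 8 genes and 10 SNVs, and cysteine and serine have 1 gene and 1 SNV each. The number of annotated genes for each amino acid is not taken into account.

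Another 10 SNVs lay in tRNA genes but outside the exons, and were not members. Of these, 9 were in introns and 1, G196105C in SUP20 (allele frequency 0.990), was at the splice acceptor of the proline tRNA gene tP(UGG)M. That gene also held an exonic SNV, G196143A in SUP121 (0.991). Both tryptophan tRNA genes hit, tW(CCA)G1 in SUP4 and tW(CCA)P in SUP40, carried their SNV in the intron at an allele frequency of 1. With these SNVs included, 84 tRNA genes carried 99 SNVs (30.5% of the annotated genes).

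Recurrence was rare at the level of the single base. Of the 98 SNVs, 97 were found in 1 suppressor and 1 was shared (1.02%), beside 1.38% of all 2904 SNVs that were found in 2 or more suppressors. The shared SNV was G61901A in tG(GCC)E, at 0.991 in SUP118 and 1 in SUP119. The pair also bears on the valine tRNA gene tV(AAC)G3, where C73883T stood at 0.989 in SUP119 and at 0.0872 in SUP118. The latter was the highest allele frequency of any member SNV in a suppressor below the minimum.

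At the level of the gene, 14 of the 83 genes carried 2 or more distinct SNVs (16.9%), beside 23.5% of all 1632 genes with an SNV. Of the 14, 13 were tRNA genes (17.3% of the 75) and 1 was the snoRNA gene snR30. In 12 of the 14 the SNVs came from 2 or more suppressors, and 13 genes in all, tG(GCC)E included, were mutated in 2 or more. The share of all genes mutated in 2 or more suppressors was not counted, so these numbers cannot be compared with it.

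The asparagine tRNA gene tN(GUU)G was the only member with 3 SNVs. C731153G was at 1 in SUP74. The other SNVs, G731210A and G731210T, were both in SUP23 and at the same position, at 0.436 and 0.564, which add up to 1. Among the glutamate tRNA genes, tE(UUC)J carried G115984A in SUP63 and G116005T in SUP70, and tE(UUC)G2 carried G401570C and A401575G together in SUP26, 5 bp apart and all at an allele frequency of 1. The phenylalanine tRNA gene tF(GAA)M likewise carried 2 SNVs in 1 strain, G352304C at 1 and C352306A at 0.990 in SUP111, 2 bp apart. The 6 member SNVs within 100 bp of another SNV of the same suppressor were all in tN(GUU)G, tE(UUC)G2 and tF(GAA)M. In tN(GUU)G they were the alternative bases of SUP23 at the same position. The share of all SNVs that lay so close was not counted.

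The remaining tRNA genes with 2 SNVs were hit in different suppressors. The glycine tRNA gene tG(GCC)D2 carried C992830A in SUP5 and A992899T in SUP82, 69 bp apart. Its counterpart tG(GCC)M carried C183906G in SUP82 (0.990) and T183955C in SUP36 (0.942), so that SUP82 had an SNV in both. The lysine tRNA gene tK(CUU)E2 carried C435762T in SUP23 (0.602) and A435767T in SUP21 (1), and tK(CUU)D1 carried G1201768T in SUP89 (0.667) and C1201809T in SUP69 (1). The arginine tRNA gene tR(UCU)M2 carried C131825G in SUP128 (0.994) and G131842C in SUP67 (0.892). The tyrosine tRNA gene tY(GUA)O was hit by C288226G in SUP102 and C288271G in SUP88, and the valine tRNA gene tV(AAC)O by G663846A in SUP14 and G663861A in SUP36. On chromosome XII, the leucine tRNA gene tL(UAG)L2 carried G732153A in SUP27 (0.456) and C732167T in SUP72 (0.570). The isoleucine tRNA gene tI(AAU)L1, close to it, carried C734809T in SUP27 (0.524) and C734836A in SUP92 (1).

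The snoRNA genes had 3 of their 5 SNVs on chromosome XII, and these stood near an allele frequency of 0.5. snR30, an H/ACA snoRNA that is essential and needed to process the small-subunit ribosomal RNA, carried G198820C at 0.492 in SUP94 and C198984T at 0.486 in SUP15, 164 bp apart. snR57, a C/D snoRNA that guides methylation of the small-subunit RNA, carried A795019T at 0.555 in SUP17. The other snoRNA SNVs were near 1. snR128 (U14 RNA), also essential for small-subunit ribosomal RNA processing, carried G139632C on chromosome X at 0.992 in SUP52. snR5, which guides pseudouridylation of the large-subunit RNA, carried C842436A on chromosome XV at 1 in SUP121. SCR1 carried G442302C on chromosome V at 0.981 in SUP71. Of the loci with Ty sequence on chromosome III, YCL075W carried T2167C in SUP68 and YCL074W carried T3565A in SUP86, both at 1. YNL054W-B carried C521567A at 0.481 in SUP58.

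The allele frequencies of the member SNVs were mostly lower on chromosome XII (median 0.524) than on the other chromosomes (median 1), although the ranges overlapped. Over the 99 occurrences in suppressors (the shared SNV counted in each strain), the median was 1, the mean was 0.914 ± 0.180 (SD) and the lowest was 0.415. On chromosome XII, 10 of 12 lay between 0.456 and 0.570. The exceptions were tV(AAC)L (C687869G, SUP74) and C734836A in tI(AAU)L1, both at 1, in strains whose median allele frequency over all chromosome XII SNVs was 0.748 (SUP74) and 0.997 (SUP92). On the other chromosomes, 80 of 87 member SNVs reached 0.7 (91.95%). Intergenic SNVs were split likewise, with 13.3% of 98 at 0.7 or more on chromosome XII and 95.2% of 734 elsewhere. Counted once each, 81 of the 98 member SNVs reached 0.7 (82.7%), beside 83.2% of all SNVs.

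The 7 member SNVs under 0.7 outside chromosome XII came from 4 suppressors. SUP23 held 4 of them, in tK(CUU)E2 (0.602), at both alleles of tN(GUU)G and in tL(UAA)K (C84291T, 0.605). In that strain 22 of 34 SNVs outside chromosome XII were under 0.7. SUP89 held the SNV in tK(CUU)D1 (0.667), and 8 of its 15 SNVs outside chromosome XII were under 0.7. The lysine tRNA gene tK(UUU)G2 (G701024A, SUP115) had the lowest value of all, 0.415, nearest to the minimum of 0.40, in a strain where 3 of 23 such SNVs were under 0.7. The SNV in YNL054W-B was the only one of 18 under 0.7 in SUP58.

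**Figure D2:**
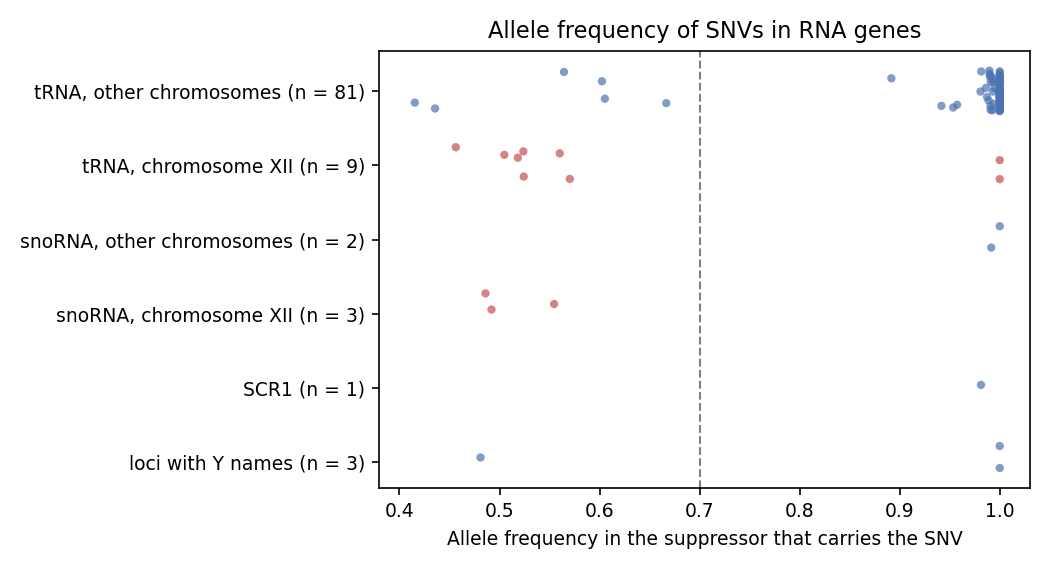
Allele frequency of each SNV in the suppressor that carries it, by RNA class and chromosome (red, chromosome XII; blue, other chromosomes; vertical spread within a row is random; the dashed line is at 0.7). On chromosome XII 10 of 12 points lie between 0.456 and 0.570, and elsewhere 80 of 87 lie at 0.7 or more.

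Within a suppressor, the allele frequencies of SNVs in RNA genes were compared with those of intergenic SNVs. In the 65 suppressors with both kinds, the mean allele frequency per strain was 0.926 ± 0.153 (SD) in RNA genes and 0.928 ± 0.0803 between genes, a difference of -0.00203 ± 0.163 (two-sided sign-flip permutation test over suppressors, p = 0.923). The share at 0.7 or more was lower by 1.94 percentage points in RNA genes (85.1% against 87.1%, permutation p = 0.645), and the share on chromosome XII was higher by 0.814 points (12.3% against 11.5%, p = 0.842). None of these differences passed the test. After Benjamini-Hochberg adjustment over the 7 comparisons of this kind, the p of each was 0.923. The test compares means, and by number of strains each difference went the other way. The allele frequency was higher in RNA genes in 41 strains and lower in 18. The share at 0.7 or more was higher in 31 and lower in 12. The share on chromosome XII was higher in 11 and lower in 32.

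The member SNVs were nearly absent from YJT75, as the calling required a low control value. Of the 98, 96 were listed at 0 there and 2 were above 0 (2.04%), beside 2.24% of all SNVs. These were A319829G in the histidine tRNA gene tH(GUG)G2 (0.0064 in YJT75, 1 in SUP4) and G622538A in the phenylalanine tRNA gene tF(GAA)P2 (0.0055 in YJT75, 1 in SUP35).

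The number of member SNVs per suppressor ranged from 0 to 4, with a mean of 1.04 ± 0.956 (SD, n = 95). There were 30 strains without any, 40 with 1, 18 with 2, 5 with 3 and 2 with 4. The strains with 4 were SUP23, whose genes are named above, and SUP121, with SNVs in tP(UGG)M, tE(UUC)M, tC(GCA)P2 and snR5. By comparison, a suppressor carried 8.76 ± 4.23 intergenic SNVs and 32.9 ± 11.2 SNVs in all. No correlation with the intergenic number passed the test (Pearson r = 0.0762, permutation p = 0.471; Spearman rho = 0.0748, p = 0.471; adjusted p = 0.471 for both; r = 0.0904 without the 2 strains farthest from the median, SUP1 and SUP14).

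Some SNVs were shared by many suppressors, most widely an SNV in GUD1 (guanine deaminase) carried by 49 strains. Carriers had 1.00 ± 1.04 member SNVs each (3.27% of their SNVs) and the 46 non-carriers had 1.09 ± 0.865 (3.08%). Within carriers the correlation with the intergenic number was 0.278 (permutation p = 0.0545, rho = 0.264 with p = 0.0661, both adjusted to 0.0661), and within non-carriers it was -0.153 (p = 0.324, rho = -0.173 with p = 0.25, both adjusted to 0.324).

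**Figure D3:**
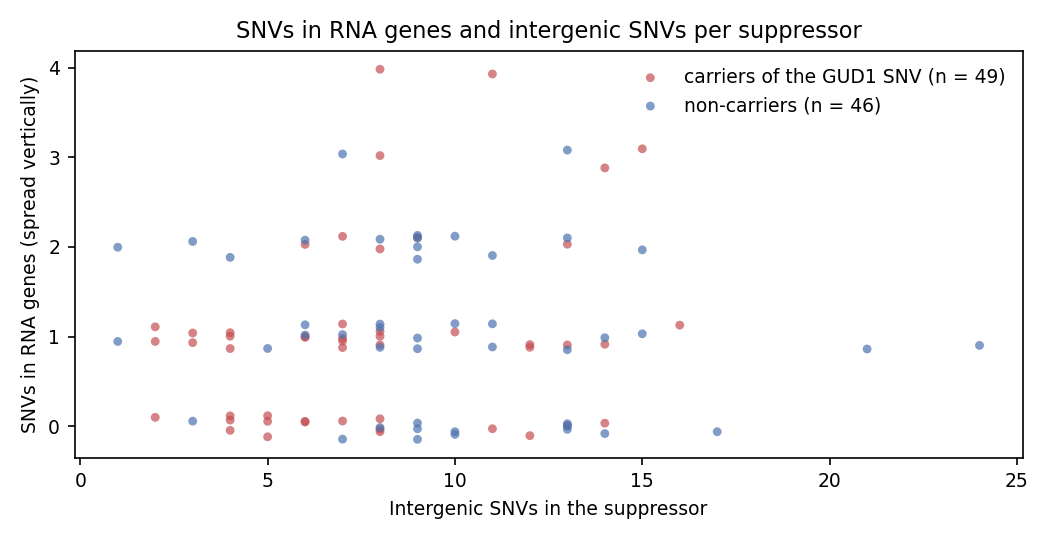
Number of SNVs in RNA genes (vertical axis, points spread for visibility) against the number of intergenic SNVs in each suppressor, for the 49 carriers of the GUD1 SNV (red) and the 46 non-carriers (blue). Strains with 0 to 4 SNVs in RNA genes overlap in their intergenic counts, and r over all 95 is 0.0762.

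The base changes were where SNVs in RNA genes and between genes differed. Substitutions were folded to the pyrimidine of the reference pair, which leaves 6 classes. Of the 98 member SNVs, 87 replaced a C:G pair (88.8%), beside 421 of 765 intergenic SNVs (55.0%), 43.5% of the synonymous and 51.2% of the nonsilent SNVs. In tRNA genes it was 81 of 89 (91.01%), and in the other members 6 of 9. Compared within each of the 65 suppressors, the share at C:G pairs was 88.97% ± 27.05 (SD) in RNA genes and 50.30% ± 20.77 between genes. The difference of 38.7 ± 37.7 percentage points was positive in 55 strains and negative in 9 (two-sided sign-flip permutation test, p = 1e-05, the smallest these permutations can give, adjusted p = 7e-05). Fisher's exact test over distinct SNVs, which reuses these SNVs and treats each as independent, gave p = 1.33e-11. This comparison was added after the base changes had been seen. With SNVs found in 1 suppressor only, which leaves out the shared ones, the difference within suppressors was 35.2 points.

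The classes separated in the same way. C to T was the most frequent change in RNA genes, with 41 SNVs (41.8%), beside 17.5% of intergenic SNVs. C to G followed with 26 SNVs (26.5% against 15.3%) and C to A with 20 (20.4% against 22.2%). There were 5 T to A (19.5% of intergenic SNVs), 6 T to C (21.8%) and 0 T to G SNVs (3.66%). Within suppressors, 4 classes differed (sign-flip permutation test, Benjamini-Hochberg over the 6 classes, n = 65). The same 4 passed Fisher's exact test over distinct SNVs, which reuses these SNVs and is not separate support. C to T was higher in RNA genes by 21.6 ± 49.3 points (adjusted p = 0.00109) and C to G by 15.2 ± 44.9 points (adjusted p = 0.00974). These are means over strains. By number of strains, C to T was higher in 33 and lower in 25. C to G was higher in only 23 strains and lower in 29, against the direction of its mean. T to C was lower, with a difference of -23.1 ± 29.7 points (adjusted p = 6e-05), as was T to A at -13.2 ± 25.0 points (adjusted p = 0.00012). The tests within suppressors count shared SNVs in each strain and take strains as independent, so their p-values may be too low. For T to C the difference was smaller with SNVs found in 1 suppressor only (-17.3 points, adjusted permutation p = 6e-05). Over distinct SNVs it was -15.7 points. C to A differed by 1.83 ± 40.8 points (adjusted p = 0.723). The test within suppressors is void for T to G, since with 0 such SNVs in RNA genes no strain could differ upward, and Fisher's exact test gave an adjusted p of 0.0761. The share of transitions, which adds C to T and T to C, was 46.5% in RNA genes and 48.0% between genes (difference -1.46 ± 51.4 points, permutation p = 0.817, adjusted p = 0.923).

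**Figure D4:**
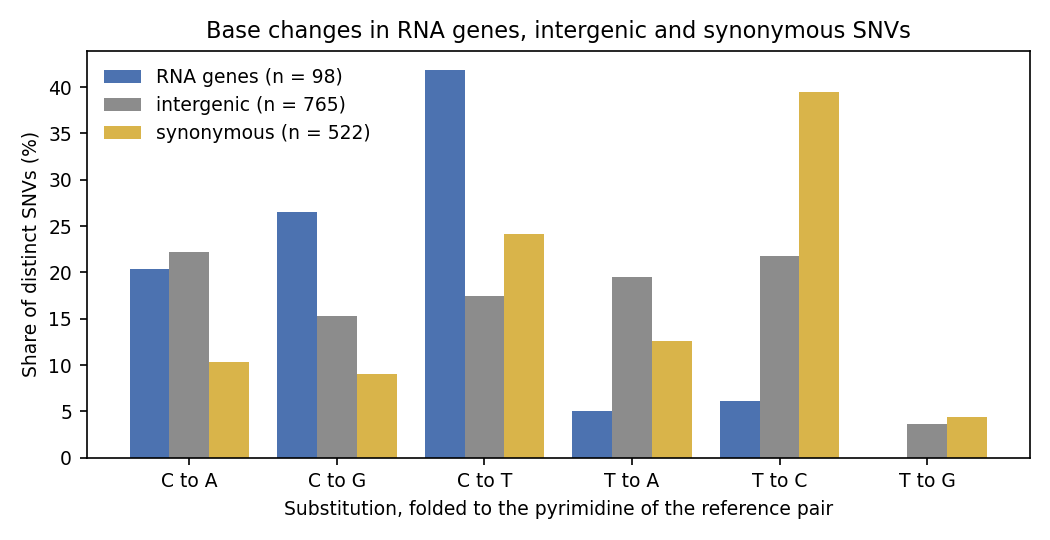
Share of distinct SNVs (%) in each folded substitution class for RNA genes (blue, 98 SNVs), intergenic SNVs (grey, 765) and synonymous SNVs (yellow, 522). C to T makes up 41.8% of the SNVs in RNA genes and 17.5% of the intergenic SNVs, and T to G is absent from RNA genes.

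The share at C:G pairs differed more in the carriers of the GUD1 SNV when shared SNVs were counted in each strain. In the 32 carriers of the GUD1 SNV with both kinds of SNV, the share at C:G pairs was higher in RNA genes by 52.97 points (94.3% against 41.3%), and in the 33 non-carriers by 24.8 points (83.8% against 59.03%, permutation p = 0.00226). The difference between both sets was 28.2 points (permutation of the carrier label over suppressors, p = 0.00139, adjusted p = 0.00903 over 13 results). With SNVs found in 1 suppressor only, which leaves out the shared ones, it was 18.4 points and did not pass (adjusted p = 0.238). The first p counts shared SNVs in each carrier and takes the strains as independent, so it may be too low. In the non-carriers alone, 0 of these 4 classes passed the sign-flip permutation test, with adjusted p from 0.107 to 0.521, and T to A (p = 0.0234) and T to C (p = 0.0357) were under 0.05 before adjustment.

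Among SNVs at C:G pairs only, C to T made up 47.1% in RNA genes and 31.8% between genes, and C to A 22.99% and 40.4%. C to G made up 29.9% and 27.8%, close to each other, and was not tested among these SNVs. Within the 59 suppressors with such SNVs of both kinds, the difference was 13.6 ± 55.5 points for C to T (sign-flip permutation p = 0.0659, adjusted p = 0.154) and -21.1 ± 47.2 points for C to A (p = 0.00142, adjusted p = 0.00497). Against synonymous SNVs the difference for C to A was -1.82 points (permutation p = 0.784), and in non-carriers of the GUD1 SNV it was -11.003 points (p = 0.249).

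Intergenic SNVs beside tRNA genes had a lower share at C:G pairs than the SNVs inside them. Of the 765 intergenic SNVs, 101 had a tRNA gene as an annotated neighbour (13.2%), and 46 of these 101 were at C:G pairs (45.5%), beside 375 of the 664 others (56.5%). These neighbours may lie at any distance, and the shares are given without a test. The base composition of the genes was not measured here, and its part in the spectrum was not tested.

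Genes whose products make or process these RNAs were considered as a fixed list of 51. Of these, 12 carried a nonsilent SNV (23.5%), beside 19.4% of the 6002 protein-coding genes. Of the 10 RNA polymerase III subunit genes, 2 carried 1 missense SNV each, RPO31 for the largest subunit (C539850T, 0.599 in SUP96), and RPC34 (A635275G, 0.960 in SUP46). Of the 9 genes for the transcription factors of RNA polymerase III, 4 were hit, PZF1 encoding TFIIIA and the TFIIIC genes TFC1, TFC3 and TFC6. TFC1 carried T485053A at 1 in SUP61 and A485006C at 0.425 in SUP124, and TFC6 carried T1197202C at 0.877 in SUP21 and G1197709T at 1 in SUP111. PZF1 (T910849C) was hit in SUP17 at 0.995 and TFC3 (T147722A) in SUP112 at 1. The polymerase III repressor gene MAF1 carried none. Of the 20 genes for tRNA processing and export, 4 were hit, each in 1 strain: the tRNA ligase gene TRL1 in SUP62 (1), the exportin gene LOS1 in SUP54 (1), the import receptor gene MTR10 in SUP7 (0.969) and the La protein gene LHP1 in SUP129 (0.995). Of 11 snoRNP protein genes, the C/D core genes NOP1 (A428055T, 1 in SUP76) and NOP56 were hit. NOP56, on chromosome XII, carried C546709T at 0.541 in SUP71, C547093G at 0.495 in SUP104 and G546520T in SUP118 (0.997) and SUP119 (1).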

How the data were processed

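Genomic DNA of 95 suppressors and of YJT75 was sequenced, 1 library per strain. The authors aligned paired reads to sacCer2 with Novoalign 2.07.14, removed duplicates from the longer reads with Picard 1.81, counted bases with deepSNV, called SNVs over all strains together, discarded those whose control value was 0.1 or higher and added gene effects with snpEff. By the Methods, loci with several alternative bases were dropped, but tN(GUU)G holds one, which was kept. The deposited values are allele frequencies, entered here as a score because 10 is written where the value is 1, and such cells were read as 1. Near-identical tRNA copies were not treated apart, so the assignment of a read to a copy may be uncertain. The paper gives a median coverage over all samples and required a minimum number of variant reads. The depth at each SNV is unknown, so that precision rests on how many strains there are.

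SNVs were counted at 0.40 or more, and missense and nonsense SNVs, or those that removed a start or stop codon, were taken as nonsilent. Intergenic SNVs had no overlapping gene. Each suppressor was compared with itself by a two-sided sign-flip permutation test (100000 resamples), with Benjamini-Hochberg adjustment, and distinct SNVs by Fisher's exact test. The sign-flip test was not used for T to G, a class too rare for it in data simulated without a difference. Alternatives were a minimum of 0.7, chromosome XII left out, tRNA genes only, SNVs at 0 in YJT75, SNVs in 1 suppressor, a synonymous reference, the GUD1 SNV carriers and non-carriers, and the omission of SUP23 (chosen after seeing the data, as were the shares at and among C:G pairs). Named genes are those with 2 or more SNVs or suppressors, all RNAs other than tRNA, single-copy tRNA genes, SNVs above 0 in YJT75, SNVs under 0.7 outside chromosome XII and those nearest to 0.40. Any other gene was picked with its value in view. The members and gene lists were chosen with earlier results of these data known. Gene names, classes and numbers of genes came from the R64 annotation, whose coordinates were not used. The tests ran in Python 3.11.15 with scipy 1.17.1, numpy 2.4.6 and pandas 2.3.3, and the plots in matplotlib 3.10.9.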

Additional observations from a re-analysis of the deposited data

Results flagged for a closer look

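YNL054W-B, the Ty gene hit in SUP58, also appeared outside the suppressors. A separate comparison set YMS6 against YGDP939, both rad53Δ exo1Δ by the paper's Methods. The label of YGDP939 gives sml1Δ::URA3, rad53Δ::LEU2 and exo1Δ::HIS3, and that of YMS6 gives the W303 markers without deletions. In this table A523234T in YNL054W-B stood at an allele frequency of 0.264 in YMS6 and was listed at 0 in YGDP939. It was the only one of 163 SNVs in that table in a gene of this kind, and the table of the suppressor S64Bα against W64Aα, both of mating type alpha and with RAD53, SML1, CHK1 and EXO1 deleted, held 0 of 25. By the paper's Methods, the minimum allele frequency was lower for both of these tables than the 0.4 set for the suppressors. At 0.264, A523234T would not have been counted in a suppressor. The counts out of 163 and 25 therefore cannot be compared directly with those of the suppressors. Each strain had 1 library.

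With shared SNVs counted in each strain, the effects in carriers and non-carriers of the GUD1 SNV differed for 2 of the 13 results compared (permutation of the carrier label over 32 and 33 suppressors). The share at C:G pairs, RNA genes minus intergenic, was larger in carriers by 28.2 percentage points (adjusted p = 0.00903). The share of T to C, RNA genes minus intergenic, was -35.97 points in carriers and -10.59 points in non-carriers, a difference of -25.4 points (permutation p = 0.00018, adjusted p = 0.00234). With SNVs found in 1 suppressor only, the differences were 18.4 points (adjusted p = 0.238) and -12.0 points (adjusted p = 0.306), and neither passed.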

How the results depend on the processing

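Of 158 values recomputed under alternatives, 19 turned direction, 5 passed the threshold newly, 10 weakened and the others were called the same. Those that weakened no longer passed, except the number of passing classes, which fell in non-carriers. Numbers of genes, SNVs and passing classes have no direction or p, and were called the same when close in size. The share at C:G pairs kept its call under every alternative run (24.8 to 52.97 percentage points). The number of genes was 73 to 84 and that of SNVs 81 to 99. Results close to 0 in the report turned sign without passing the test. The allele frequency difference was 0.00238 at a minimum of 0.7, 0.0153 with tRNA genes only, 0.00773 with SNVs in 1 suppressor, 0.00785 in GUD1 SNV carriers and 0.000154 without SUP23. The share at 0.7 or more differed by 1.73 points with tRNA genes only. The share of transitions differed by 1.204 points with tRNA genes only, 3.15 with SNVs in 1 suppressor, 3.93 in non-carriers and 8.61 over distinct SNVs (Fisher's exact test, p = 0.125). Against synonymous SNVs it was -20.3 points and passed (permutation p = 0.00119). The share on chromosome XII was -2.32 points with tRNA genes only, -0.771 with SNVs in 1 suppressor, -0.439 in carriers and -0.566 over distinct SNVs. The C to A share was -0.448 with SNVs in 1 suppressor, -2.35 in carriers, -1.81 over distinct SNVs and 12.2 against synonymous SNVs (adjusted permutation p = 0.0202). The correlation was -0.153 in non-carriers. Among SNVs at C:G pairs, C to T passed with tRNA genes only (15.9 points), with SNVs in 1 suppressor (15.4) and over distinct SNVs (15.3), and was -9.43 against synonymous SNVs. C to A at these pairs no longer passed against synonymous SNVs (-1.82) or in non-carriers (-11.003). Of the 4 classes that passed, 0 did so in non-carriers (adjusted permutation p of 0.107 to 0.521), and the same 4 passed over distinct SNVs by Fisher's exact test. T to G, with 0 SNVs in RNA genes, is counted in the totals above, but its permutation p is not used. T to A did not pass against synonymous SNVs (-5.11 points). The causes were not tested. No paired analysis was possible because the replicate number that YJT75 shares with a suppressor only names a library. This concerns pairing by replicate number, whereas RNA-gene and intergenic SNVs were compared within each strain. Read depth was not given for each SNV, so how far depth limits single allele frequencies is unknown.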
